A study of Mus musculus with 2 samples.

Results

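The core circadian clock genes Arntl, Clock, Per1, Per2, Per3, Cry1, Cry2, Nr1d1, Nr1d2 and Rora were examined in total RNA-seq of the gastrocnemius, the large calf muscle of mixed but mainly fast fibres. They were chosen by gene symbol, and the 10 symbols matched 10 of 55536 annotated genes, with 45 annotated transcripts between them. The data are 2 libraries of 1 group, replicates 2 and 1, from female B6Cast F1 mice (strain B6CASTF1/J), a hybrid of the laboratory strain C57BL/6 and the wild-derived CAST. A description label puts the mice at 18 to 20 months, while the age field says that age was not collected. The labels number the libraries as biological replicates with separate tissue samples but give both the same donor identifier, so they do not settle whether these are different animals, and the spread between the libraries may be technical in part. The labels give no time of day of tissue collection, no treatment and no second group, so there was no comparison between conditions. A mean is over both libraries and stands with its SD (n = 2). Levels are in TPM, a share of the transcripts of a library that is scaled for transcript length and so can be compared between genes.

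The mammalian clock is a feedback loop of transcription. ARNTL (also called BMAL1) and CLOCK pair to activate genes that carry E-box elements, among them the Per and Cry genes, whose proteins return to inhibit that pair. A second loop joins the repressors NR1D1 and NR1D2 (REV-ERB alpha and beta) and the activator RORA, which compete for ROR elements in genes such as Arntl. Skeletal muscle has a clock of this kind in its own fibres, and the messenger RNAs of most of these genes rise and fall over the day, with Arntl and Nr1d1 far apart in phase.

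The start regions of the genes that the results below turn on are shown first, each from 250 bases before a RefSeq start to 50 bases from it (build GRCm38.p6, the sequence of mm10), on the strand of the gene. RefSeq windows were found for 9 of the 10 genes, 13 windows in all. Capitals mark letters of motifs searched on both strands: the E-box CACGTG, the variant E-box CACGTT, the D-box TTANGTAA, the ROR element cores AGGTCA and GGGTCA, and the cAMP response element TGACGTCA. Per1 has 2 windows, at chr11:69098699-69098998 and chr11:69099902-69100201 on the plus strand, and annotated transcripts at both starts had counts here. Nr1d1 (chr11:98775328-98775627, minus strand) and Arntl (chr7:113207261-113207560, plus strand, the downstream of its 2 overlapping windows) were lower in replicate 2, and Per3 (chr4:151044616-151044915, minus strand) holds a repeated motif.
Per1, first window: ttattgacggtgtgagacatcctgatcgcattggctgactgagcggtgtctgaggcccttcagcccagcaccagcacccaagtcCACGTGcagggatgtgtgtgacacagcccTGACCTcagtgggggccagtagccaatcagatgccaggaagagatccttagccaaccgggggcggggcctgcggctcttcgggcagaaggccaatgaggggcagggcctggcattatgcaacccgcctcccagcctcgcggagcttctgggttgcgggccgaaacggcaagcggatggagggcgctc
Per1, second window: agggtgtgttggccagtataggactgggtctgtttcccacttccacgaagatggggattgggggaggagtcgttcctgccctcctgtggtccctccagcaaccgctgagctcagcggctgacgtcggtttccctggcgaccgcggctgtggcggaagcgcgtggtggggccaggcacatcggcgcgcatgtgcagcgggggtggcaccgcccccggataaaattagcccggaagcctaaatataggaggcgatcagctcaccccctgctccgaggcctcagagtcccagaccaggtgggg
Nr1d1: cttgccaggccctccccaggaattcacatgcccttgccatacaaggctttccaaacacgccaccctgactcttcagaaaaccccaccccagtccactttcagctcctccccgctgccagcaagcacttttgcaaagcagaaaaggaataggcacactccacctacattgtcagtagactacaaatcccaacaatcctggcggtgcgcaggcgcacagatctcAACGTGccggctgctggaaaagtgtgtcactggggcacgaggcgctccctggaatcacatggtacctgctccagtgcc
Arntl: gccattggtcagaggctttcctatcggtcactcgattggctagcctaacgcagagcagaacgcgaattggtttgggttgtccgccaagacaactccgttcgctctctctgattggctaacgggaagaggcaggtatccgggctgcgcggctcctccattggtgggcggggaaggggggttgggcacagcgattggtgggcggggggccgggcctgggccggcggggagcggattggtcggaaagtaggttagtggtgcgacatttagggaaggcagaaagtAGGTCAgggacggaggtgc
Per3: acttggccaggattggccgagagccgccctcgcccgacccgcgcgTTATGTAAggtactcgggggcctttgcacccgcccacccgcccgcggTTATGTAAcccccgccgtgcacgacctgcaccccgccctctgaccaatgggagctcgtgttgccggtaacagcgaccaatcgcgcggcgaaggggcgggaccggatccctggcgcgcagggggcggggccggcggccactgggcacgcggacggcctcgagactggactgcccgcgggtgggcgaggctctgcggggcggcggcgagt

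The first Per1 window held an E-box at positions -166 to -161 from the start and a ROR core at -137 to -132, and the second window held none of the 6 motifs. The Nr1d1 window held 1 variant E-box, at -28 to -23. The Arntl window shown held 1 ROR core, at 32 to 37 from its RefSeq start, a base at which no annotated transcript starts. The other Arntl window, at the start of Arntl-201, held none of the 6 motifs. The Per3 window held the D-box letters at 2 places, -205 to -198 and -158 to -151. Of the windows not shown, that of Cry1 held an E-box and a variant E-box and that of Cry2 a variant E-box. Those of Nr1d2 and of 1 RefSeq start of Clock held a ROR core. No annotated transcript started within 100 bases of that Clock start, and the other Clock windows held none of the 6 motifs. Over all 32851 windows, 7.15% held the E-box, 4.68% the variant E-box, 2.32% the D-box, 16.3% the core AGGTCA, 13.7% the core GGGTCA and 1.79% the cAMP response element. Of the 13 clock gene windows, 2, 3, 1, 4, 0 and 0 held these motifs, in the same order. Each match is a description of the letters in the window, and binding was not measured.

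All 10 clock genes reached 1 TPM in each library, and their levels spanned a range from about 1 TPM for Per2 to 44.9 TPM for Rora. Each had at least 171 expected counts in each library. Of the 10943 genes that reached 1 TPM in each library, 12.6% were higher than Rora, and 48.4% were higher than Cry2. For Per2 the share was 99.98%.

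**Figure D1:**
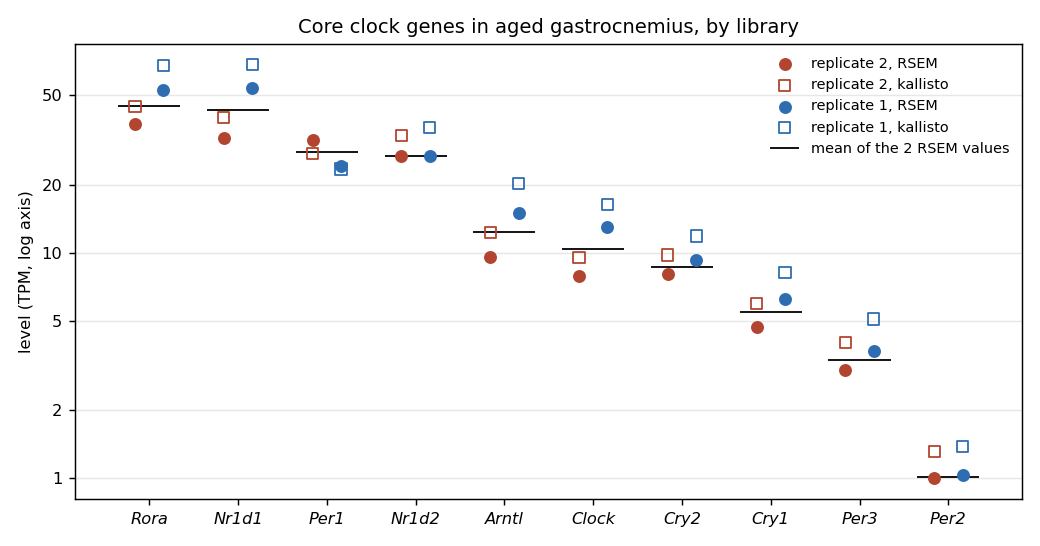
Level of each clock gene (TPM, log axis) in replicate 2 (red, left) and replicate 1 (blue, right), by RSEM (filled circles) and kallisto (open squares), with the mean of the 2 RSEM values as a line. Rora and Nr1d1 stand highest at means of 44.9 and 43.1 TPM, Per2 lowest at 1.02 TPM, and the kallisto value lies above the RSEM value for 9 of the 10 genes, Per1 being the exception.

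Of the activators, Arntl (ENSMUSG00000055116.8, chromosome 7, 113207465 to 113314126, mm10) was at 9.58 TPM in replicate 2 and 15.1 TPM in replicate 1. Clock (chromosome 5, 76209868 to 76304792), its partner, was at 7.86 TPM in replicate 2 and 13.0 TPM in replicate 1. Both were higher in replicate 1, and Arntl was above Clock in both libraries, at 1.22 times its TPM in replicate 2 and 1.16 times in replicate 1. The relatives of this pair were lower. Npas2, which can replace Clock, averaged 0.765 TPM, and Arntl2, the relative of Arntl, averaged 0.235 TPM. Kallisto listed Arntl2 at 1.17 TPM in replicate 2 and 1.34 TPM in replicate 1, so its level depends on the tool.

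The inhibitors covered the widest range. Per1 (chromosome 11, 69095217 to 69109960) was at 31.6 TPM in replicate 2 and 24.3 TPM in replicate 1, the one member with a higher TPM in replicate 2. Per3 (chromosome 4, 151003652 to 151044665) was at 3.01 and 3.68 TPM, and Per2 (chromosome 1, 91415982 to 91459324) at 1.00 and 1.03 TPM, in replicates 2 and 1. By RSEM, Per1 therefore stood at 31.6 times the TPM of Per2 in replicate 2 and 23.6 times in replicate 1, and at 10.5 and 6.60 times that of Per3. Kallisto gave lower ratios to both genes in both libraries. Its ratios of Per1 to Per3 were 6.87 in replicate 2 and 4.63 in replicate 1. It listed Per1 at 27.6 and 23.6 TPM and Per2 at 1.31 and 1.38 TPM, in replicates 2 and 1. The size of these ratios thus depends on the tool, while Per1 was the highest of the 3 Per genes by both. Cry2 (chromosome 2, 92403646 to 92434043) was at 8.09 TPM in replicate 2 and 9.30 TPM in replicate 1. Cry1 (chromosome 10, 85131700 to 85185064) was at 4.71 TPM in replicate 2 and 6.24 TPM in replicate 1. Cry2 exceeded Cry1 in both libraries and by both tools, 1.72-fold in replicate 2 and 1.49-fold in replicate 1.

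The genes of the second loop were among the 4 most abundant, with Per1. Rora (chromosome 9, 68653786 to 69388246), the activator, was at 37.2 TPM in replicate 2 and 52.6 TPM in replicate 1. Nr1d1 (chromosome 11, 98767932 to 98775333) was at 32.4 TPM in replicate 2 and 53.8 TPM in replicate 1. Nr1d2 (chromosome 14, 18204054 to 18239127) was at 26.9 TPM in replicate 2 and 27.0 TPM in replicate 1, the smallest relative spread of the 10 genes by RSEM TPM, though not by kallisto, where that of Per2 was smaller. Rorb, a relative of Rora, averaged 0.065 TPM.

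In the order of mean TPM, Rora led, followed by Nr1d1, Per1, Nr1d2, Arntl, Clock, Cry2, Cry1, Per3 and Per2. Several neighbours in this order did not differ beyond their spread. Rora and Nr1d1 (44.9 ± 10.9 and 43.1 ± 15.1 TPM) changed places between the libraries. Per1 and Nr1d2 (28.0 ± 5.20 and 27.0 ± 0.0636 TPM) also changed places, and kallisto gave Nr1d2 the higher mean. Clock and Cry2 (10.4 ± 3.66 and 8.70 ± 0.856 TPM) changed places too, and the ranges of Arntl (12.3 ± 3.89 TPM) and Clock overlapped. The steps from Nr1d1 to Per1, from Nr1d2 to Arntl, and from Cry2 down through Cry1 and Per3 to Per2 held in both libraries. They held by both tools, with no overlap of the ranges of the 2 RSEM values. The step from Nr1d1 to Per1 was small in replicate 2, at 32.4 and 31.6 TPM. There RSEM's own intervals for the 2 genes overlapped, 30.6 to 33.1 and 28.7 to 33.9 TPM.

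The difference between the libraries was set out on TMM-scaled counts, as the log2 ratio of replicate 2 over replicate 1, for 12969 genes that had 50 or more expected counts over both libraries, out of 43722892 for all genes in replicate 2 and 38654555 in replicate 1. All 10 clock genes passed this minimum. With 1 library against 1 the ratios have no check by replicates and carry no test, and they describe these libraries. None of the 10 was 2-fold apart, against 4.64% of all tested genes. At 1.5-fold the number was 1, Nr1d1, against 13.7% of all tested genes, and it was lower in replicate 2, as were 6.33% of all tested genes. No clock gene was 1.5-fold higher in replicate 2, against 7.36% of all tested genes. Over 10 genes, such counts are near the background.

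Nr1d1 had 65.1 CPM (the count as a share of the TMM-scaled library, not scaled for length) in replicate 2 and 98.2 CPM in replicate 1, or 1.51-fold lower in replicate 2 (95% counting interval 1.44 to 1.59), a log2 ratio of -0.59. Clock followed at 46.1 and 66.3 CPM in replicates 2 and 1, 1.44-fold lower in replicate 2 (1.36 to 1.53), and Arntl at 20.5 and 29.1 CPM, 1.42-fold lower (1.303 to 1.557). These 3 genes, a repressor and the activating pair, were thus lower in the same library by similar folds. Rora was 1.29-fold lower in replicate 2 (1.25 to 1.33), at 184 against 237 CPM. In the other direction, Per1 had 79.1 CPM in replicate 2 and 55.8 CPM in replicate 1, 1.42-fold higher in replicate 2 (1.343 to 1.496), a log2 ratio of 0.50. Of all tested genes, 6.15% were at or below the log2 ratio of Nr1d1 and 9.29% were at or above that of Per1.

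The remaining members were closer to level. Nr1d2 and Per2 had log2 ratios of 0.20 and 0.11 under TMM, which turned to -0.02 and -0.11 under spike-in totals. Cry1, Per3 and Cry2 had log2 ratios of -0.26, -0.06 and -0.03, and that of Cry2 turned to 0.01 with kallisto counts. The counting intervals of Cry2, Per3 and Per2 included a fold of 1, and those of the other members did not. These intervals cover counting error only and narrow as counts rise. The share of all tested genes whose interval left out 1 was not computed. RSEM's own TPM intervals of the 2 libraries did not overlap for Rora, Nr1d1, Per1, Arntl and Clock. The share of all genes without overlap was not computed either, and the TPM ratio had a median log2 of -0.15 over all genes. Neither kind of interval can thus be set against all genes, and neither is read here as a result about the clock genes.

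**Figure D2:**
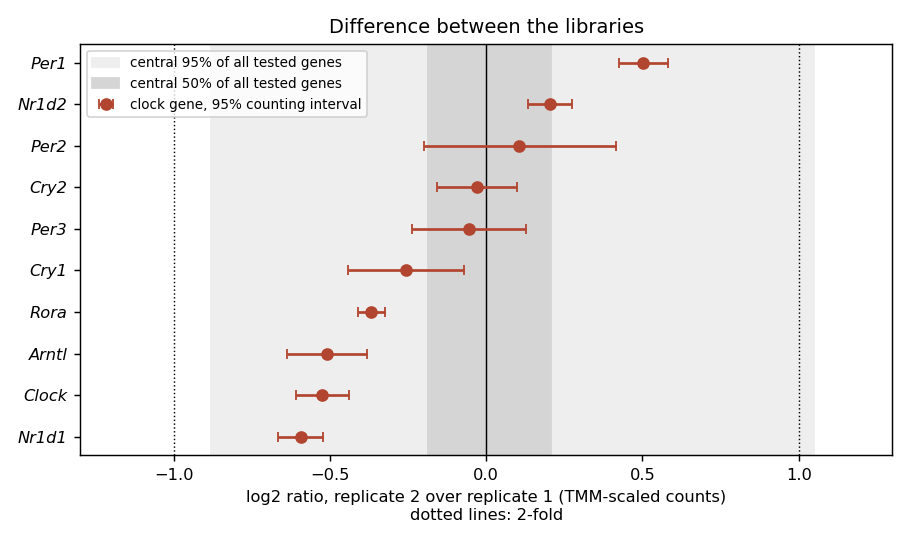
Log2 ratio of replicate 2 over replicate 1 on TMM-scaled counts for each clock gene, with its 95% counting interval, over bands that hold the central 50% and 95% of 12969 tested genes. Nr1d1, Clock, Arntl, Rora and Cry1 lie below the central 50% and Per1 above it, and all 10 genes lie within the central 95% and inside 2-fold.

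Over the list, 7 of 10 log2 ratios were below 0, against 50.2% of all tested genes, with a median of -0.16 for the clock genes against -0.00094 for all tested genes. The median distance from 0 was 0.31 for the clock genes and 0.20 for all tested genes. Scaling by spike-in totals moved the median of all genes to -0.22 and that of the clock genes to -0.38, which left the distance between them at -0.15. Under that scaling 4 clock genes, Nr1d1, Clock, Arntl and Rora, were 1.5-fold lower. Over all tested genes, 955 were 1.5-fold higher and 821 lower under TMM, and 543 and 1645 under spike-in totals. At 2-fold the split was 350 higher and 252 lower under TMM, and 244 and 440 under spike-in totals.

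Ratios of 2 clock genes within a library do not depend on the scaling between libraries. The TPM of Nr1d1 was 3.39 times that of Arntl in replicate 2 and 3.57 times in replicate 1. This ratio was nearly the same in both, although each gene differed between them. The ratio of Per1 to Nr1d1 differed, at 0.976 in replicate 2 and 0.452 in replicate 1, and kallisto gave 0.693 and 0.344. The ratio of Nr1d1 to Nr1d2 was 1.21 in replicate 2 and 1.99 in replicate 1, and 1.20 and 1.90 by kallisto. Per1 relative to Arntl stood at 3.30 in replicate 2 and 1.61 in replicate 1, and at 2.25 and 1.16 by kallisto. The direction of these 3 differences between the libraries was the same with either tool.

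The transcripts of Rora fell into 2 sets of like size with starts 635896 bases apart. Rora-201, of 10878 bases and 11 exons, starts at 68653786 on chromosome 9 and was at 17.2 TPM in replicate 2 and 24.8 TPM in replicate 1. Rora-202, of 2591 bases and 10 exons, starts at 69289682 and was at 18.5 TPM in replicate 2 and 25.6 TPM in replicate 1. Rora-202 took 49.7% of the Rora TPM in replicate 2 and 48.6% in replicate 1, and 48.3% in both by kallisto, so its share differed little between libraries and tools while the level of Rora did. The counts were less even, with 6083 for Rora-201 and 1512 for Rora-202 in replicate 2, and 7743 and 1844 in replicate 1, since Rora-201 is the longer. The transcripts differ in the first part of the coding sequence. Rora-201 codes for 523 amino acids and Rora-202 for 467, and they share the last 1373 coding bases. The first 60 coding bases of each, from GENCODE M21 transcripts with the start codon in capitals, are these.
Rora-201: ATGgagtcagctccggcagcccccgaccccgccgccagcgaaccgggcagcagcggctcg
Rora-202: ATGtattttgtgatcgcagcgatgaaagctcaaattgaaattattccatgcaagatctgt

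Per1 transcripts started at 3 main places. Per1-201, the full-length transcript from the first window shown above, was at 18.7 TPM in replicate 2 and 14.1 TPM in replicate 1, or 59.2% and 57.8% of the Per1 TPM. The transcript that starts 3731 bases upstream of it took 9.48% in replicate 2 and 13.8% in replicate 1. The second window, 1204 bases downstream of the Per1-201 start, is where Per1-204 (496 bases) and Per1-206 (4636 bases) start, within 6 bases of each other. Together this pair took 31.0% of the Per1 TPM in replicate 2 and 28.4% in replicate 1 by RSEM, and 25.9% and 24.9% by kallisto. The tools split the pair differently. RSEM placed Per1-204 at 9.78 TPM in replicate 2 and 6.89 TPM in replicate 1 and Per1-206 at 0.04 and 0 TPM, whereas kallisto listed Per1-204 at 0 in both and Per1-206 at 7.13 and 5.86 TPM. Because Per1-204 is short, its 9.78 TPM rest on 127 counts in replicate 2 and its 6.89 TPM on 79.2 counts in replicate 1. Without Per1-204, an alternative added after the data were seen, Per1 was at 21.9 TPM in replicate 2 and 17.4 TPM in replicate 1, below Nr1d2 in both. RSEM's own interval for Per1-201, 7.52 to 17.85 TPM in replicate 2 and 8.13 to 13.99 TPM in replicate 1, lay below its value in both libraries, 18.73 and 14.05 TPM. By RSEM's posterior means the start of the pair took more, 47.1% in replicate 2 and 36.8% in replicate 1, so its share is uncertain.

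**Figure D3:**
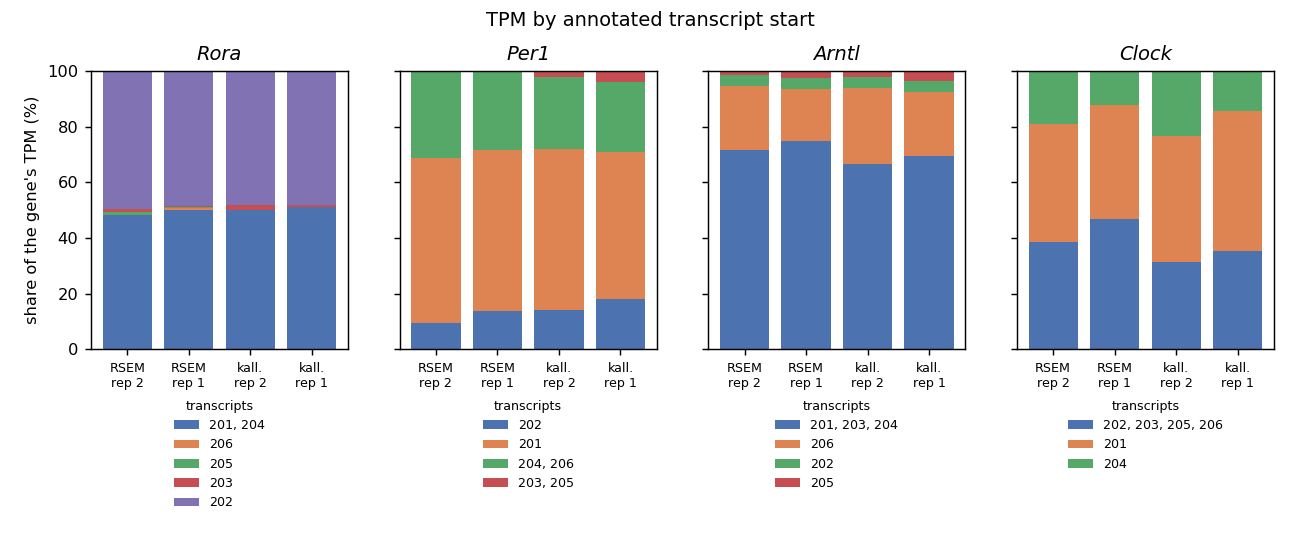
Share of the TPM of Rora, Per1, Arntl and Clock (%, stacked to 100) by annotated transcript start, for replicate 2 and replicate 1 by RSEM and then by kallisto. Transcripts whose starts lie within 100 bases share a colour. Rora-202 takes 48.3% to 49.7% in every bar, and the Per1-204 and Per1-206 start takes 24.9% to 31.0%.

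Arntl and Clock also used more than 1 annotated start. Transcripts from the main Arntl start, Arntl-201 and its neighbours Arntl-203 and Arntl-204, took 71.7% of its TPM in replicate 2 and 74.7% in replicate 1. Arntl-206, a coding transcript that starts at 113234623, took 22.8% and 18.9% in replicates 2 and 1. For Clock, the start of Clock-201 took 42.3% of TPM in replicate 2 and 41.1% in replicate 1. The start that lies upstream of it, shared by Clock-205 and shorter transcripts, took 38.5% and 46.9%, and Clock-204 took 19.2% and 12.1%. The Clock-204 level was 1.51 TPM in replicate 2 and 1.57 TPM in replicate 1, while Clock-201 was at 3.33 and 5.35 TPM. The difference in Clock between the libraries thus lay in the transcripts from the 2 upstream starts. The other members had 1 leading transcript: Nr1d1-201 took 95.9% in replicate 2 and 97.1% in replicate 1, Cry2-201 took 92.8% and 89.7%, and Nr1d2-201 took 80.7% and 76.1%. Cry1-201 and Per2-201 held all the counts of their genes by RSEM and kallisto, but 79.9% and 87.2% of Cry1, and 71.0% and 72.7% of Per2, in replicates 2 and 1, by RSEM's posterior means. The leading transcript was the same by RSEM and kallisto for all 10 genes.

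Per3 and Nr1d2 had the lowest coding shares. The coding transcript of Per3, Per3-201, took 66.1% of its TPM in replicate 2 and 50.4% in replicate 1, at 1.99 and 1.86 TPM, and kallisto gave it 60.7% and 55.03%. Retained-intron transcripts of Per3 took 25.2% and 33.1% by RSEM and 29.2% and 27.8% by kallisto, so their order between the libraries depends on the tool, and the nonsense-mediated decay transcript 8.64% and 10.6% by RSEM. Retained-intron transcripts of Nr1d2 took 19.3% of its TPM in replicate 2 and 23.9% in replicate 1, and 14.9% and 17.3% by kallisto. Retained introns made up 3.94% of Clock TPM in replicate 2 and 12.4% in replicate 1, where Clock-206 was at 0 TPM in replicate 2 and 1.06 TPM in replicate 1. For Clock-206, kallisto gave 0.0685 and 0.710 TPM. Counting protein-coding transcripts alone, also an alternative added after the data were seen, the mean of Per3 was 1.93 TPM in place of 3.35 TPM and that of Nr1d2 21.1 TPM in place of 27.0 TPM, and the other 8 moved by less than their SD.

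**Figure D4:**
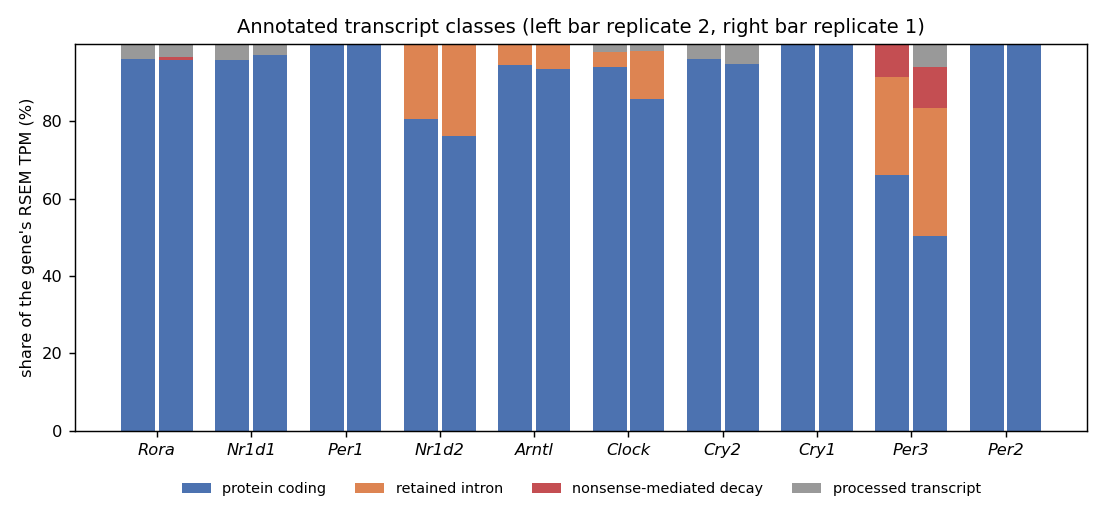
Share of the RSEM TPM of each clock gene (%) in 4 annotated transcript classes, replicate 2 on the left and replicate 1 on the right of each pair. Per3, with 66.1% and 50.4% in coding transcripts, and Nr1d2, with 80.7% and 76.1%, have the lowest coding shares.

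Some clock genes overlap other genes. The 3' end of Nr1d1 shares 263 exonic bases with Thra, a thyroid hormone receptor gene on the opposite strand, which was at 34.3 TPM in replicate 2 and 30.7 TPM in replicate 1. Thra was not lower in replicate 2, unlike Nr1d1. The libraries are called stranded in a spike-in label, but how the counting used the strand is not given in the sources used here. Per3 lies inside Camta1 on the same strand and shares no exonic base with it. Ube2n-ps1, a pseudogene at 26.8 TPM in replicate 2 and 25.5 TPM in replicate 1, lies in an intron of Clock on the same strand and also shares no exonic base with it. The antisense partners of Cry2, Arntl and Rora had no counts in either library.

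Of 13 other genes of the clock loops, 9 reached 1 TPM in each library. The highest of these were Tef, an activator at D-boxes, at 69.9 ± 0.332 TPM, Bhlhe40, a repressor at E-boxes, at 45.3 ± 20.7 TPM and Nfil3, a repressor at D-boxes, at 25.3 ± 9.55 TPM. By log2 ratio under TMM, none of the 11 that passed the count minimum was 2-fold apart, against 4.64% of all tested genes. Above 0 were 6 and below 0 were 5, with a median log2 ratio of 0.15, while 50.2% of all tested genes were below 0. Past 1.5-fold were 4 of the 11, against 13.7% of all tested genes, and they are named after their values were seen. Bhlhe40 was lower in replicate 2, with 2463 expected counts against 4468 in replicate 1 (log2 ratio -0.89). It would pass the 2-fold limit with the shift that spike-in totals give. Nfil3 was higher in replicate 2, at 32.1 TPM against 18.6 TPM in replicate 1 (0.94), as were Ciart (0.88), a repressor of the ARNTL and CLOCK pair, and Timeless (0.94). The value of Timeless rests on 43 counts in replicate 2 and 21 in replicate 1, and without the prior count its fold was 2.01 (1.16 to 3.56), at the limit. In TPM, Timeless was more than 2-fold apart by RSEM, at 1.42 in replicate 2 and 0.51 in replicate 1. By kallisto it was under 2-fold, at 3.10 and 1.80 TPM. Dbp, an activator at D-boxes, was at 8.51 TPM in replicate 2 and 10.2 TPM in replicate 1, a log2 ratio of -0.06.

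Enzymes and cofactors that act on clock proteins mostly differed by less than 1.5-fold between the libraries. Of 22 genes in this list, 21 reached 1 TPM in each library. The highest were the kinase genes Csnk1a1 (91.3 ± 8.71 TPM) and Csnk2b (84.9 ± 6.79 TPM) and Usp2 (74.3 ± 31.8 TPM), a ubiquitin protease. Of the 21 that passed the count minimum, 5 were above 0 and 16 below, with a median log2 ratio of -0.08. Of all tested genes, 50.2% were below 0. Usp2 alone was 2-fold higher in replicate 2 (2.70% of all tested genes were) at 187 CPM against 85.7 CPM in replicate 1, a 2.18-fold difference (2.09 to 2.27). In TPM the gap was smaller, at 96.8 TPM in replicate 2 and 51.8 TPM in replicate 1, which is under 2-fold. Usp2 would also fall under the 2-fold limit with the shift that spike-in totals give. No gene of the list was 2-fold lower in replicate 2, against 1.94% of all tested genes. Csnk1d and Csnk1e, whose kinases mark PER proteins for degradation, had log2 ratios of -0.09 and -0.18. Fbxl21 had 1 count in replicate 2 and 5 in replicate 1.

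**Figure D5:**
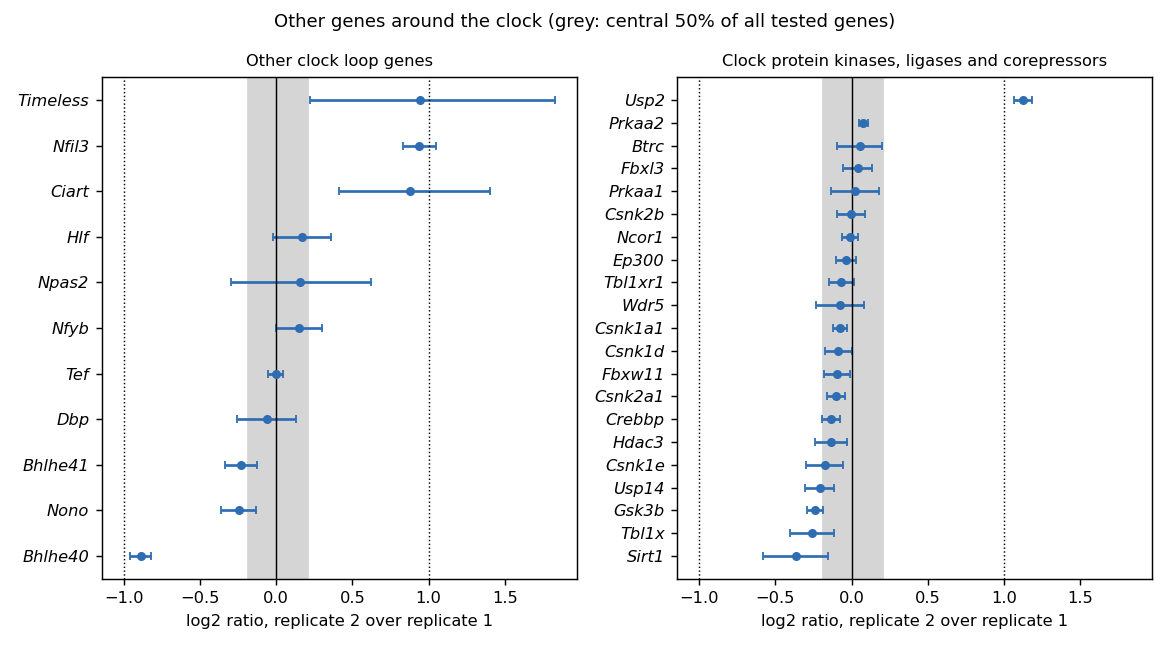
Log2 ratio of replicate 2 over replicate 1 on TMM-scaled counts, with 95% counting intervals, for 11 other clock loop genes (left) and 21 enzymes and cofactors of the clock (right), over a grey band that holds the central 50% of all tested genes. Bhlhe40 (-0.89) is farthest below 0, Usp2 (1.12) is past 2-fold, and Nfil3, Ciart and Timeless lie just inside 2-fold.

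The tissue label was checked against markers. All 8 muscle fibre markers, most of them genes of fast fibres, reached 1 TPM. Their summed level was 105716 TPM in replicate 2 and 114370 TPM in replicate 1. In log2 ratio, 4 of these markers were above and 4 below 0. All 10 slow fibre markers were 2-fold higher in replicate 2, against 2.70% of all tested genes, with a summed level of 2596 TPM against 507 TPM in replicate 1. Summed levels of the other lists were 40.1 against 54.3 TPM for 5 endothelial markers, 407 against 399 TPM for 5 fibro-adipogenic markers and 21.1 against 26.7 TPM for 5 macrophage markers, replicate 2 against replicate 1. They were 118 against 107 TPM for 5 adipocyte markers, 1.05 against 2.06 TPM for 3 satellite cell markers, 24.9 against 34.4 TPM for 4 Schwann cell markers and 291 against 306 TPM for 4 erythrocyte markers. Within the fibro-adipogenic list, 2 of 5 markers were 2-fold higher in replicate 2, Col1a1 at 28.3 TPM against 9.69 TPM in replicate 1 and Col3a1 at 37.3 against 12.5 TPM, while Gsn, at 230.3 against 238.4 TPM, made up most of the sum. Cd68, a macrophage marker, was 2-fold lower in replicate 2 (1.94% of all tested genes were), at 0.54 against 1.52 TPM. It had 20 counts in replicate 2 and 49 in replicate 1. Lower by 1.5-fold were 3 of 5 endothelial, 2 of 5 macrophage, 3 of 4 Schwann cell and 2 of 2 tested satellite cell markers. This compares with 6.33% of all tested genes. No marker of those lists was 1.5-fold higher. In the 7 lists from endothelial to erythrocyte, the markers that reached 1 TPM in each library numbered 5 of 5, 5 of 5, 3 of 5, 4 of 5, 0 of 3, 3 of 4 and 4 of 4. No marker was without counts in both libraries. The part of fibre type or cell makeup in the clock gene differences was not tested, and in bulk tissue fewer cells of a type and less RNA per cell cannot be told apart.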

How the data were processed

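Total RNA-seq libraries of mouse gastrocnemius (2 in number, from 300 ng of RNA with ERCC spike-ins) were used. The notes deposited beside the values name mm10 and GENCODE M21. Which aligner was run, and with what settings, is not given in the sources used here. Expected counts and TPM in the first kind of deposited table carry RSEM's column names, per the file headers, with RSEM's own interval bounds. Estimated counts and TPM in the second kind of deposited table carry kallisto's names, and were added up per gene. Genes held 43722892 expected counts in replicate 2 and 38654555 in replicate 1, while 96 spike-in, 26248 tRNA and 1 phiX rows were set aside.

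Rounded counts were scaled by TMM (edgeR 4.0.16, R 4.3.3), kept where both libraries held at least 50 in sum, and put on a log2 CPM scale with a prior count of 2. Intervals of folds are exact conditional binomial at 95%. They cover counting error alone, with no spread between replicates. They also treat each count as 1 molecule, although PCR copies cannot be told from molecules. No test was possible within 1 group of 2 libraries, and likeness of pattern was not ranked, since any pair of genes correlates at 1 or -1. Transcript starts within 100 bases were grouped. The rule named all 10 clock genes. Of each other list except the cell type markers, it named the 3 of highest mean TPM and those 2-fold apart or without counts. Npas2, Arntl2, Rorb, Dbp, Ciart, Timeless, Csnk1d, Csnk1e and Fbxl21 were named after their values were seen, as were the markers Col1a1, Col3a1, Gsn and Cd68. The clock genes and lists were chosen with earlier results of these data known. Of the other clock loop genes, 1 is not reported here. The ratio step was tested on simulated counts. Alternatives were DESeq2 1.42.0 size factors, other scalings, count minimums and prior counts, kallisto, posterior means and each library left out. Promoter windows came from RefSeq.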

Additional observations from a re-analysis of the deposited data

How the results depend on the processing

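All 10 clock genes stayed at or above 1 TPM in both libraries by kallisto and by posterior mean TPM, 7 reached 5 TPM, and none was 2-fold apart under any of the 8 alternatives. The number 1.5-fold apart was 1 under TMM (Nr1d1, close to the limit) and 4 with spike-in totals, 3 with total counts of genes, 3 with the ratio of TPM, 0 with no count filter and 0 with kallisto counts. Over all genes the shares under these settings were 16.9%, 14.9%, 17.6%, 29.8% and 13.7%, in the same order, against 13.7% under TMM. The median log2 ratio of -0.16 moved to -0.38 with spike-in totals, -0.30 with total counts, -0.35 with the ratio of TPM and -0.26 with a minimum of 500 counts, which drops Per2. Spike-in totals and total counts scale all genes alike. With Per2 dropped at the minimum of 500 counts, the median was the log2 ratio of Cry1. That ratio was -0.265 there and -0.256 with the minimum of 50. The cause of the move with the ratio of TPM was not tested. Without replicate 1 or replicate 2, levels were those of the other library. Kallisto moved the mean TPM of 7 of 10 genes by more than the SD. Its means were 1.24 to 1.36 times those of RSEM for 9 genes, and 0.914 times for Per1. Absolute levels thus depend on the tool. Per2, with 188 counts in replicate 2 and 171 in replicate 1, has the widest interval. No paired analysis was possible because there is 1 group of samples.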

Other observations

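A list of 11 muscle genes drawn up as candidates for control by the clock was also followed. Of these, 3 were 2-fold higher in replicate 2 (2.70% of all tested genes were) and 1 was 2-fold lower (1.94%), with a median log2 ratio of 0.48. Pdk4, a kinase that restrains glucose oxidation, was at 575 TPM in replicate 2 and 172 TPM in replicate 1 (log2 ratio 1.83). Ucp3, a mitochondrial uncoupling protein gene, was at 89.0 TPM in replicate 2 and 37.3 TPM in replicate 1 (1.42), and Klf15, a transcription factor of amino acid and lipid use, at 32.0 and 17.6 TPM (1.00). Klf15 lies at the 2-fold limit on TMM-scaled counts, is under 2-fold in TPM, and would fall under the limit with the shift that spike-in totals give. Myod1, the myogenic factor, was at 6.51 TPM in replicate 2 and 19.9 TPM in replicate 1 (-1.46). The highest of the list were Tcap, a Z disc protein gene, at 1627 ± 297 TPM and Mylk4, a myosin kinase gene, at 565 ± 92.2 TPM, both with a log2 ratio of 0.52. Slow fibre markers were also higher in replicate 2, and their part in these values was not tested.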
